A study of Mus musculus with 2 samples.

Results

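The 10 genes described here encode alarmins and antimicrobial proteins of inflamed skin: S100a8, S100a9, S100a7a, Lcn2, Slpi, Camp, Defb1, Defb3, Defb4 and Defb14. They were taken by gene symbol, not by measured values, from a table of 55487 Ensembl genes, and each symbol matched 1 gene. RNA was sequenced in 2 libraries from mouse ear cells that were sorted as Langerhans cells, the resident dendritic cells of the epidermis, by surface CD207 and MHC class II; the study's title calls them monocyte-derived. Both libraries belong to a single group with the genotype HTR2A-/-, which lacks the serotonin 2A receptor gene, and the sorted cells had been kept for 24 hours with imiquimod, a Toll-like receptor 7 agonist, and an agent labelled a-CD40L. Wild-type or unstimulated cells were not analysed here, so no value below is an effect of genotype or treatment. The labels name neither the allele nor the mice behind each library, nor their age or sex. Where a test between the libraries is quoted, it measures only how these libraries differ, which may be technical.

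Library 1 held 69925160 counts and library 2 held 42264685, and counting error therefore mattered for the rare genes only. Cd207, the marker of the sort, reached 1125 CPM (counts scaled to library depth) in library 1, with 1052 CPM in library 2. Htr2a, the targeted gene, had 77 and 117 counts and stood at percentiles 44.5 and 33.4 of 1135 protein-coding olfactory receptor genes per kb of exon. Those receptors belong to the olfactory epithelium, yet most of their genes carried counts, and they served as a background. Above background means beyond their 95th percentile, at 0.761 CPM per kb of exon in library 1 and 1.58 in library 2. All of them have more exon sequence than Defb3 (275 bp), Defb4 (454 bp) and Defb14 (204 bp), in which few counts already give a high level per kb. The median olfactory receptor gene was itself higher in library 2, at 0.221 against 0.645 CPM per kb. The 2 libraries also differed in cell type markers, which are given beside the results they touch. In bulk libraries fewer cells of a type and less RNA per cell cannot be told apart.

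These proteins are an early chemical defence of epithelia. Keratinocytes and neutrophils release them, they bind metals, disrupt microbial membranes or block proteases, and several act as danger signals on Toll-like receptor 4 and on chemoattractant receptors of leukocytes. IL-17, IL-22 and IL-36 induce many of them in keratinocytes through NF-κB, C/EBP factors and the adaptor Act1, and their transcripts are abundant in psoriatic plaques.

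Levels of the 10 genes spanned a wide range and were dominated by the pair S100a8 and S100a9, which took 74.2% of the counts of all 10 genes in library 1 and 81.2% in library 2. Of the 10 genes, 8 were above background in both libraries, while the same held for 47.3% of protein-coding genes and 27.2% of all genes with a length. Taken by library, 8 were above background in library 1 (56.2% of protein-coding genes) and 9 in library 2 (50.4%). Camp was above background in neither library and Defb4 only in library 2. By mean level per kb of exon the order was S100a9, S100a8, Lcn2, Slpi, Defb1, Defb3, Defb14, S100a7a, Defb4 and Camp. S100a9, S100a8 and Lcn2 did not overlap with their neighbours across the 2 libraries. From Slpi downwards the values of each pair of neighbours overlapped, so that part of the order is not resolved. Within library 2, Defb3, Slpi and Defb1 were all near the same level.

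**Figure D1:**
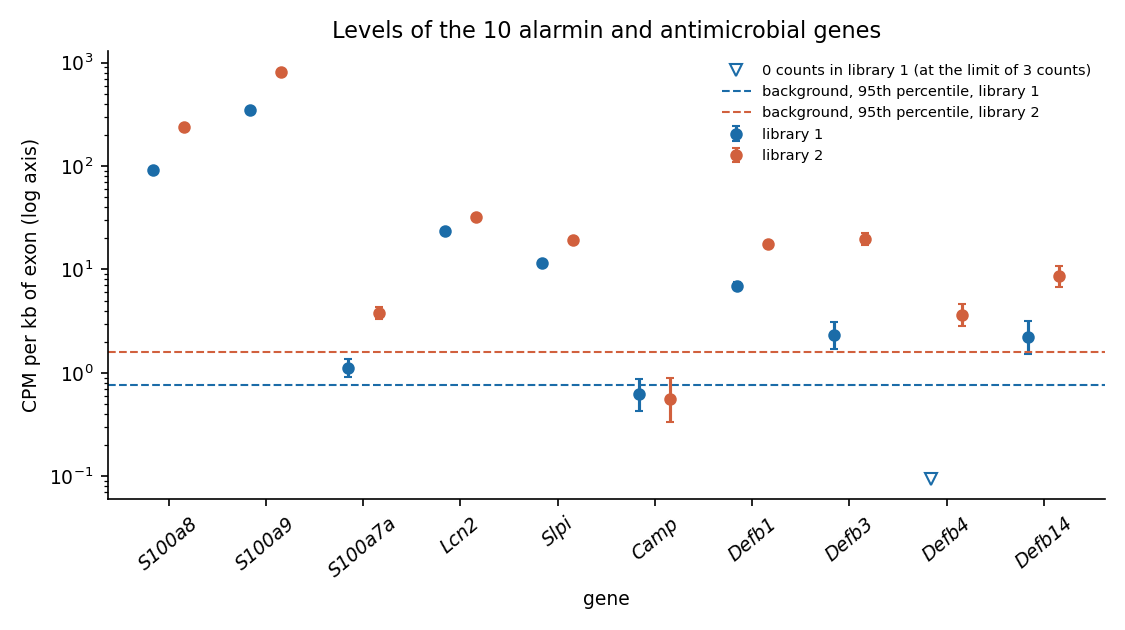
Level of each of the 10 genes in CPM per kb of exon on a log axis, with library 1 in blue and library 2 in orange. Bars are exact 95% Poisson intervals of the counts, dashed lines are the background limits of 0.761 and 1.58, and the open triangle marks Defb4, which had 0 counts in library 1. S100a9 and S100a8 stand far above the other genes in both libraries, and both Camp points lie below their lines.

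S100a9 and S100a8 encode the subunits of calprotectin, a calcium- and zinc-binding heterodimer that withholds metals from microbes and activates Toll-like receptor 4. S100a9 (GRCm38 chromosome 3, 90692632 to 90695721, minus strand) drew 12704 counts in library 1 against 17981 in library 2, or 348 and 815 CPM per kb. It stood at percentile 99.7 of protein-coding genes per kb in library 1 and 99.9 in library 2. S100a8 (chromosome 3, 90668978 to 90670035, plus strand) had 4450 and 6992 counts, or 91.7 and 238 CPM per kb, at percentiles 98.8 and 99.5. Both were higher in library 2 on every scaling tried. In CPM they averaged 304 ± 172 for S100a9 and 115 ± 72.0 for S100a8 (SD, n = 2 libraries).

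The balance of the subunits differed little between the libraries, though beyond counting error. S100a8 transcripts amounted to 0.263 of S100a9 transcripts per kb in library 1 (95% interval from an exact binomial interval of the counts, 0.255 to 0.273) and 0.292 in library 2 (0.284 to 0.301). S100a9 was thus the more abundant subunit at the RNA level in both. The mean ratio of 0.278 ± 0.021 (SD, n = 2) rests on exon lengths of 694 bp for S100a8 and 522 bp for S100a9, and with the longest transcript as length it was 0.385.

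S100a7a, the mouse relative of human psoriasin, lies next to them but was scarce. S100a7a (chromosome 3, 90654017 to 90658669, plus strand) drew 108 counts in library 1, against 221 in library 2, or 1.12 and 3.80 CPM per kb. These levels were above background, at percentiles 97.7 and 99.8 of olfactory receptor genes. They did not exceed the 99th percentile of those genes in library 1. Of the 50-base stretches in its transcripts, 6.44% also occur in transcripts of other genes, so part of its few counts is uncertain. The ratio of S100a7a to S100a9 per kb was 0.0032 in library 1 and 0.0047 in library 2.

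**Figure D2:**
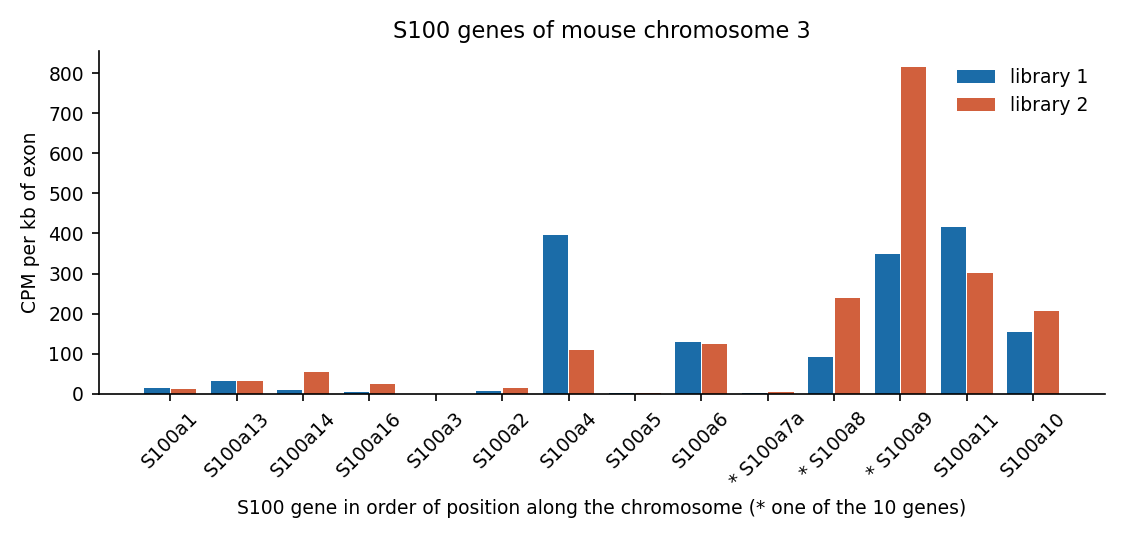
Level of the S100 genes of mouse chromosome 3 in CPM per kb of exon, in their order along the chromosome, with library 1 in blue and library 2 in orange. S100a8 and S100a9 are taller in library 2, while S100a4 and S100a11 are taller in library 1.

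Other S100 genes did not share one direction. Of 12 further S100 genes, all on chromosome 3 except S100b (chromosome 10) and S100g (chromosome X), 9 passed the background limit in both libraries. Of 10 that could be tested, 6 were higher in library 1 and 4 in library 2. S100a4, a motility-related gene of leukocytes and fibroblasts, was at 397 CPM per kb in library 1 and 109 in library 2 (log2 ratio of library 1 over library 2, 2.36). S100a11 was at 415 and 301 CPM per kb, and S100a10, the annexin A2 partner, at 155 and 206. S100a14, an epithelial gene, was at 8.44 and 53.9 CPM per kb (log2 ratio -2.17). The median log2 ratio of these genes was 0.31 with TMM scaling but -0.19 with total counts, where 3 were higher in library 1 and 5 in library 2, so no direction is given for the family.

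The promoter windows of S100a8 and S100a9, which were both higher in library 2, are shown with those of Lcn2, whose direction depended on the scaling, and Defb3, whose log2 ratio was the largest in size among the 10 genes with counts in both libraries. Each window runs from 250 bases before to 50 bases after the gene start in RefSeq, on GRCm38.p6, and is written 5′ to 3′ on the gene's strand. Capitals mark every match, on either strand, to the searched motifs. TGANTCA is bound by AP-1 and TTGCNNAA by C/EBP factors. TTCNNNGAA is a STAT motif, and the κB consensus was searched too. TATAAA, a core promoter element, was added after the sequences were seen. They lie at chr3:90668821-90669120 (S100a8, plus strand), chr3:90695672-90695971 (S100a9, minus strand), chr2:32387690-32387989 (Lcn2, minus strand) and chr8:19293111-19293410 (Defb3, plus strand).
S100a8 promoter window: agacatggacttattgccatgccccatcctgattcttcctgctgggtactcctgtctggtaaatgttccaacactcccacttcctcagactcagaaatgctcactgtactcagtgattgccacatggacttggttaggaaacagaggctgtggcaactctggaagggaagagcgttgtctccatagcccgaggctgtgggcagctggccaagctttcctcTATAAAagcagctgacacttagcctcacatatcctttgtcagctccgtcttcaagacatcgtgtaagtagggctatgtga
S100a9 promoter window: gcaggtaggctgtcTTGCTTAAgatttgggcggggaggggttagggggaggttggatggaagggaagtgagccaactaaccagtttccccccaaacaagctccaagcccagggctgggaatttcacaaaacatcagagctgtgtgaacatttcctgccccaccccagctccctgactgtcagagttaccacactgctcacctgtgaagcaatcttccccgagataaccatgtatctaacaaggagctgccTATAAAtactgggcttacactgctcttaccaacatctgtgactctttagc
Lcn2 promoter window: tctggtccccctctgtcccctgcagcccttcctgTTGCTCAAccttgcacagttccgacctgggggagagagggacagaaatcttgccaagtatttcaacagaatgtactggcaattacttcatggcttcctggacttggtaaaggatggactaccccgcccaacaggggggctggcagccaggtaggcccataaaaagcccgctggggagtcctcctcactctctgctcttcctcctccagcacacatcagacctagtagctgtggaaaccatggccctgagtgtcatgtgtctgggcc
Defb3 promoter window: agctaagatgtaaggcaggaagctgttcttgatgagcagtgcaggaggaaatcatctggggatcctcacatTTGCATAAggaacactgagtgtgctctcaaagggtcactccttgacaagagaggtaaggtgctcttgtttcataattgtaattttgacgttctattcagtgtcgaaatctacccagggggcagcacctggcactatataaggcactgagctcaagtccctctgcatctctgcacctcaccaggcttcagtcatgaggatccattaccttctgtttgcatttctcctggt

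A window was present for 7 of the 10 genes. TTGCNNAA occurred in 4 of these 7 (S100a9, Lcn2, Slpi and Defb3) and in 10.8% of 32851 promoter windows of the same length. TATAAA occurred in S100a8 and S100a9, against 13.6% of all windows. It began 30 bases before the annotated start in S100a8 and at the annotated start itself in S100a9. TTCNNNGAA was found in S100a7a alone, against 8.30% of windows. TGANTCA and the κB consensus had no match in these 7 windows and were found in 7.81% and 0.411% of all. The matches overlap no other searched motif, and a match does not show binding.

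Lcn2 and Slpi, the lipocalin and the protease inhibitor, were at intermediate levels and varied least between the libraries among the genes above background. Lcn2 encodes lipocalin 2, which captures bacterial iron carriers. Lcn2 (chromosome 2, 32384633 to 32388252, minus strand) drew 4364 counts in library 1, against 3550 in library 2, or 23.8 and 32.0 CPM per kb. It stood at percentiles 94.0 and 96.3 of protein-coding genes per kb. Slpi encodes a secreted inhibitor of neutrophil elastase that is also antimicrobial. Slpi (chromosome 2, 164354070 to 164389095, minus strand) had 945 and 955 counts, or 11.5 and 19.1 CPM per kb, at percentiles 86.9 and 93.1. In CPM, Lcn2 averaged 73.2 ± 15.3 and Slpi 18.1 ± 6.42 (SD, n = 2 libraries).

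The direction of the Lcn2 difference depended on scaling. With TMM its log2 ratio of library 1 over library 2 was 0.07 and with DESeq2 size factors 0.17, but it was -0.43 with total counts and -0.27 with the upper quartile. Slpi was higher in library 2 on each of these scalings, with a log2 ratio of -0.24 by TMM. The Lcn2 to S100a9 ratio per kb was 0.0684 in library 1 (95% interval 0.066 to 0.0708), higher than the 0.0393 (0.0379 to 0.0407) in library 2. The Slpi to Lcn2 ratio was 0.481 (0.448 to 0.517) in library 1 and 0.598 (0.556 to 0.642) in library 2. These ratios within a library do not depend on scaling.

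Camp encodes the mouse cathelicidin, a propeptide of neutrophil granules and keratinocytes that proteases cut into an active peptide. Camp (chromosome 9, 109847379 to 109849617, minus strand) drew 33 counts in library 1, against 18 in library 2. They amount to 0.623 and 0.562 CPM per kb, at percentiles 91.9 and 41.7 of olfactory receptor genes, so Camp was not distinguishable from background in either library. With fewer than 1 CPM in both libraries it was not tested. Without a count filter its adjusted p in edgeR's exact binomial test between the libraries was 0.162.

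The β-defensins are small cationic peptides of epithelia, and the 4 genes studied lie on chromosome 8. Defb1 (21776599 to 21795185, plus strand), expressed by many epithelia without stimulation, drew 423 counts in library 1, against 650 in library 2, or 6.94 and 17.6 CPM per kb. Defb3 (19293360 to 19295291, plus strand), an inducible gene, had 45 and 229 counts, or 2.34 and 19.7 CPM per kb. Both passed the background limits of either library, and both were higher in library 2. For Defb3 in library 1 the pass rests on its short exon length. Its 0.644 CPM there lay below the 0.658 CPM of the median olfactory receptor gene. Defb3 stood below Defb1 in library 1, with a per-kb ratio of 0.337 (95% interval 0.242 to 0.459), and was not separable from it in library 2, at 1.12 (0.957 to 1.30).

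Defb14, the mouse counterpart of human β-defensin 3, and Defb4, a relative of human β-defensin 2, were rarer. Defb14 (19194357 to 19195212, plus strand) drew 32 counts in library 1, against 75 in library 2, or 2.24 and 8.70 CPM per kb. Defb4 (19198706 to 19201545, plus strand) drew 0 counts in library 1, which allows up to 0.0429 CPM, against 70 counts in library 2, or 1.66 CPM. By CPM, Defb4 was at least 38.6-fold lower in library 1, taking 3 counts in that library as the limit. Defb14 passed the background limit in both libraries and Defb4 in library 2 alone. These passes rest on the division by short exon lengths. In CPM, without length, Defb14 (0.458 and 1.77) lay below the median olfactory receptor gene (0.658 and 1.92) in both libraries. The same held for Defb4 in library 2. Of the 50-base stretches of the Defb4 transcript, 5.68% also occur in Defb8, which had 0 counts in both libraries.

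The rest of the family gives a measure of how far such counts can be read. Of 43 β-defensin genes in the table, 30 had 0 counts in library 1 and 18 in library 2. Outside the 4 studied, 4 of 39 were above background in both libraries. The most abundant β-defensin per kb was Defb6, which is not among the 10 genes, at 53.2 CPM per kb in library 1 and 77.9 in library 2. Defb1 amounted to 0.130 of Defb6 per kb in library 1 (95% interval 0.116 to 0.146) and 0.226 in library 2 (0.205 to 0.250). Defb13 was at 2.28 and 4.45 CPM per kb and Defb40 at 1.43 and 5.23. Defb28 had 0 counts in library 1 and 55 in library 2, a contrast like that of Defb4. The 95th percentile of the 38 other protein-coding β-defensins was 1.56 CPM per kb in library 1 and 4.57 in library 2. Defb1, Defb3 and Defb14 exceeded it in both libraries, while Defb4 and S100a7a exceeded it in neither.

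**Figure D3:**
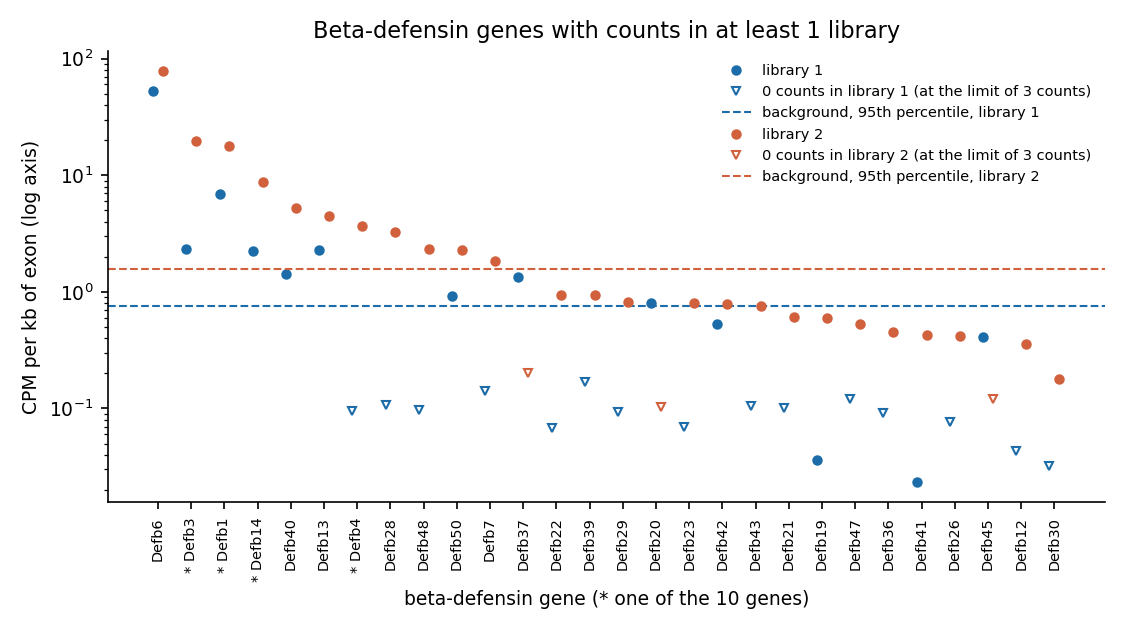
Level of the β-defensin genes with counts in at least 1 library, in CPM per kb of exon on a log axis, ordered by their higher value. Filled points are levels, open triangles mark 0 counts and are drawn at the limit of 3 counts, and dashed lines are the background limits of 0.761 (library 1) and 1.58 (library 2). Defb6 leads the family, followed by Defb3, Defb1 and Defb14, and many genes have 0 counts in library 1.

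The libraries were then compared across all genes, to set the differences of the 10 genes beside those of every other gene. A gene was tested where either library reached 1 CPM, which held for 30373 genes. The exact binomial test in edgeR, adjusted by Benjamini-Hochberg, called 80.2% of them at 0.05, and it compares the reads of these libraries, not conditions. All 9 of the 10 genes that could be tested were called, a share near that background. Of these, 8 were higher in library 2 (44.2% of all tested genes) and 1, Lcn2, in library 1 (36.1%). At least 2-fold higher in library 2 were 4 genes (24.5% of all), namely S100a7a, Defb3, Defb4 and Defb14, and 0 were at least 2-fold higher in library 1 (12.6%). Defb3, Defb4 and Defb14 reached 1 CPM in library 2 only, so they entered the test through the library where they were high. These counts of called genes are therefore no evidence of a shift. The background also rose toward library 2, with the median olfactory receptor gene at 0.221 CPM per kb in library 1 and 0.645 in library 2. Whether these 4 genes, all low in library 1, differed beyond that rise was not tested. With a dispersion of 0.04 in place of sampling noise alone, 4 of the 9 were called (33.6% of all genes), the same 4 genes, with adjusted p of 0.0870 for S100a8 and 0.163 for S100a9 in edgeR's exact test.

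The sizes of these differences were as follows. By TMM the log2 ratio of library 1 over library 2 was -0.73 for S100a9, -0.88 for S100a8 and -1.25 for S100a7a. It was -0.84 for Defb1, -2.54 for Defb3 and -1.42 for Defb14. The median over the 9 tested genes was -0.88, beside -0.15 over all tested genes. It includes Defb3, Defb4 and Defb14, which entered the test through library 2, so it is no evidence of a shift either. Setting Defb4, the most extreme value, at its limit of 3 counts left the median where it was, which a median does by construction. Scaling by total counts shifted the libraries by 0.50 on the log2 scale, which gave a median of -1.38 for the 9 genes and -0.65 for all genes, and all 9 were then higher in library 2. The share of called genes that were higher in library 2 was 55.1% by TMM and 75.9% by total counts. Values in the following paragraphs are by TMM.

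Keratinocyte markers differed in the same direction as calprotectin and the β-defensins. All 8 activated keratinocyte markers were higher in library 2, with a median log2 ratio of -1.23 and a summed level of 715 CPM in library 1 against 2520 CPM in library 2. Among them Krt16, a keratin of activated epidermis, was at 179 and 782 CPM and Krt6a at 201 and 645 CPM. All 9 suprabasal markers were higher in library 2 as well (median -1.51), with summed levels of 598 and 2064 CPM, and Flg and Lor among them were within background in library 1. Of 7 basal markers 5 were higher in library 2 and 2 in library 1 (median -0.50), with summed levels of 4052 and 10589 CPM. No marker of these 3 lists was at 0 in either library. Krt14 reached 1315 CPM in library 1, against 4806 CPM in library 2. Relative to Krt16, S100a9, Lcn2 and Defb1 were less abundant in library 2: the S100a9 to Krt16 ratio per kb was 3.05 (95% interval 2.97 to 3.12) in library 1 and 1.63 (1.6 to 1.66) in library 2. The Lcn2 to Krt16 ratio per kb was 0.208 and 0.0641, and the Defb1 to Krt16 ratio 0.0608 and 0.0353. Defb3 went the other way against Krt14, with a ratio per kb of 0.00313 in library 1 and 0.00721 in library 2. Such ratios depend on the marker chosen: Krt16 had a log2 ratio of -1.63, but Krtdap, a suprabasal marker, one of -0.44. S100a9 (-0.73) and Defb1 (-0.84) were less negative than the activated and suprabasal medians and more negative than the basal median. The part of keratinocyte RNA in the levels of the 10 genes was not tested.

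Neutrophil and monocyte markers, the other usual company of calprotectin, mostly differed in the opposite direction. Of 12 neutrophil markers, 10 passed the background limits in both libraries, 8 were higher in library 1 and 1 in library 2 (median log2 ratio 1.03), with summed levels of 1046 and 673 CPM. With total counts 7 were higher in library 1 and 4 in library 2 (median 0.53), so this contrast with calprotectin is less one-sided on that scaling. Most of that sum was Il1r2, the decoy receptor of IL-1, at 873 and 575 CPM, which other myeloid cells also express. Csf3r, the G-CSF receptor, reached 56.3 CPM in library 1, against 15.2 CPM in library 2, the largest ratio toward library 1 in this list. The marker higher in library 2 was Cxcr1, at 0.744 and 2.91 CPM and within background in library 1. Cxcr2, Stfa3 and Ly6g were called in neither direction. The S100a9 to Csf3r ratio per kb was 22.3 in library 1 (95% interval 21.5 to 23.1) and 194 in library 2 (179 to 210). Ly6g, a defining surface gene of mouse neutrophils, had 87 and 89 counts, or 1.24 and 2.11 CPM. Mpo, a granule enzyme, was above background in library 1 only. No neutrophil marker was at 0. Of 9 monocyte and macrophage markers 8 were higher in library 1 and 1 in library 2 (median 1.99), with summed levels of 2081 and 873 CPM. Their part in the levels of the 10 genes was not tested.

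Langerhans cell markers were also mostly higher in library 1, in 6 of 7 genes (median 1.32), with summed levels of 18860 and 10236 CPM, while Cdh1 was higher in library 2. With total counts 5 were higher in library 1 and 2 in library 2 (median 0.82). The S100a9 to Cd207 ratio per kb was 0.471 in library 1 and 1.18 in library 2. Of 6 T cell markers 4 were higher in library 1 and 1, Thy1, in library 2 (median 1.98; summed levels 187 and 116 CPM). Of 6 mast cell markers 2 were above background in library 1 and 1 in library 2 (summed levels 28.9 and 22.1 CPM, Fcer1a at 0 in both libraries and Mcpt4 at 0 in library 1), and 2 of 3 tested were higher in library 1 (median 0.57; 1 in each direction with total counts). Of 6 fibroblast markers, 4 (Col1a1, Col1a2, Col3a1 and Lum) were above background in library 1 and 0 in library 2, with summed levels of 114 and 42.7 CPM. The same 4 were higher in library 1 and 1, Dcn, in library 2 (median 2.21), and 4 against 2 with total counts.

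**Figure D4:**
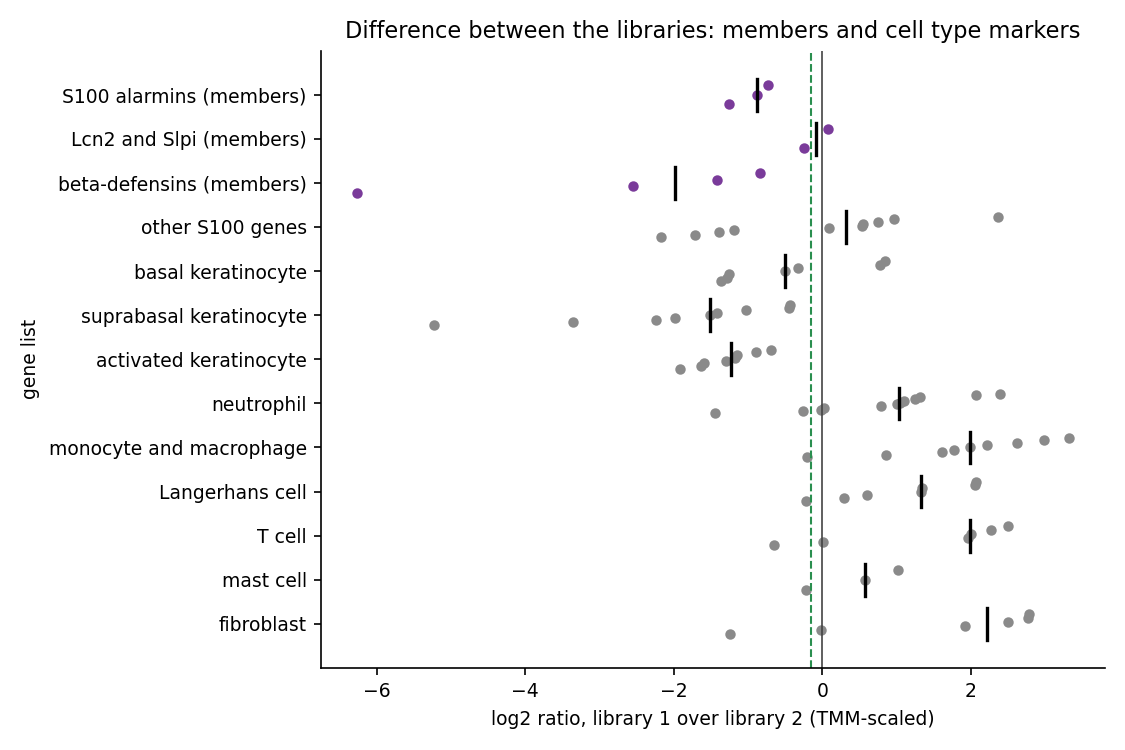
Log2 ratio of library 1 over library 2, TMM-scaled, for the tested genes of each list, with the 10 genes in purple and other lists in grey. Black bars are list medians, the solid line is 0 and the dashed green line is the median of all tested genes at -0.15. The S100 alarmins and β-defensins lie on the library 2 side with the keratinocyte lists, and the neutrophil, monocyte and Langerhans cell medians lie on the library 1 side.

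Other antimicrobial genes were mixed. Of 16 listed, 10 were above background in both libraries, 6 were higher in library 1 and 6 in library 2 (median log2 ratio -0.04). Lyz2, the lysozyme of macrophages, was at 181 CPM per kb in library 1 and 179 in library 2. Ccl20, a chemokine with defensin-like antimicrobial activity that binds CCR6, was at 4.64 and 51.6 CPM per kb. Adm, which encodes the peptide adrenomedullin, was at 4.37 and 27.5 CPM per kb. Both were higher in library 2, whereas Nos2, the inducible nitric oxide synthase, was at 10.1 CPM per kb in library 1 and 1.72 in library 2. Retnla drew 0 counts in library 1, against 121 in library 2. The neutrophil granule genes Ltf and Ngp were at 0.502 and 1.71 CPM per kb in library 1 and 1.24 and 2.56 in library 2, and Ltf lay within background. With total counts 5 of the 16 were higher in library 1 and 9 in library 2, so no direction is given for this list.

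Proteases that process these peptides, and their inhibitors, fell into epidermal and neutrophil genes. Of 8 listed, 4 passed the limit in each library, and 4 of 5 tested were higher in library 2 with 0 higher in library 1 (median log2 ratio -1.75). Klk7 and Klk5, kallikreins that in human skin cut cathelicidin, were at 6.46 and 1.16 CPM per kb in library 1 and at 30.8 and 7.08 in library 2. Spink5, which encodes their inhibitor, was at 7.11 and 40.2 CPM per kb, and Serpinb3a at 3.08 and 11.3. Klk14, another listed kallikrein gene, was within background in both libraries, at 0.585 CPM per kb in library 1 and 0.745 in library 2. The neutrophil protease genes Elane, Ctsg and Prtn3 were within background too, with Elane at 0 counts in library 1 and 16 in library 2.

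Receptors of the 10 gene products were mostly higher in library 1. Of 14 receptors and binding partners, 8 were above background in both libraries, 9 were higher in library 1 and 3 in library 2 (median log2 ratio 0.74; 6 and 4 with total counts). Cd14, a co-receptor of Toll-like receptor 4, was at 133 CPM per kb in library 1 and 50.7 in library 2. Tlr4 itself was at 2.34 and 0.975 CPM per kb and within background in library 2. Bsg, which encodes basigin, a receptor of S100A9, was at 59.0 and 85.4 CPM per kb. Fpr1, a formyl peptide receptor, was at 17.3 and 3.63, and Ccr2 at 7.43 and 1.05. Lrp2, an uptake receptor for lipocalin 2 in the kidney, was at 0.268 and 1.04 CPM per kb, within background.

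Among the cytokines that induce these genes in skin, Il1b and Tnf were abundant, while the IL-17 genes and Il22 were scarce. Il1b was at 869 CPM per kb in library 1 and 534 in library 2, and Tnf at 75.3 and 71.0. Il17a had 51 and 14 counts, Il17f 81 and 17 and Il22 181 and 51. Of these, Il17a and Il17f were within background in both libraries and Il22 exceeded it in library 1 only. Il17c was also scarce but higher in library 2 (13 and 51 counts, log2 ratio -2.11), and exceeded background there only. The IL-36 genes, listed in the annotation under their IL-1 family names, were higher in library 2: Il1f9 (IL-36γ) was at 9.07 and 27.1 CPM per kb, Il1f6 (IL-36α) at 0.923 and 6.24, Il1f8 (IL-36β) at 0.247 and 1.98, and their antagonist Il1f5 at 1.36 and 6.71. Il1f8 was within background in library 1. Of the 11 cytokine genes 6 passed the background limit in both libraries. Of 10 tested, 4 were higher in library 1 and 6 in library 2 (median log2 ratio -0.91). Il17c, Il1f6 and Il1f8 reached 1 CPM in library 2 only, and Il17f in library 1 only. They entered the test through the library where they were high, so this split is no evidence of a shift.

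Receptors and transducers downstream of these cytokines were present in both libraries. All 9 receptor genes were above background, 4 higher in library 1 and 3 in library 2 (median log2 ratio 0.07, but -0.43 with total counts, so no direction is given). Il17ra was at 13.2 CPM per kb in library 1 and 6.53 in library 2, while its partner Il17rc was at 2.43 and 7.21. Tnfrsf1a was at 32.2 and 33.8 CPM per kb, and Il10rb, a chain of the IL-10 and IL-22 receptors, at 18.7 and 9.89. Of 12 transducers and transcription factors 11 were above background, 8 higher in library 1 and 3 in library 2 (median 0.59). With total counts the split was 6 and 4 and the median 0.09. Junb was at 362 and 198 CPM per kb, Cebpb at 185 and 120, and Nfkbiz, which encodes IκBζ, at 102 and 78.6. Fosl1, an AP-1 subunit of activated epithelia, was at 12.6 and 94.2 CPM per kb. Cebpe, a factor of neutrophil granule formation, drew 0 counts in library 1, against 41 in library 2.

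With 2 libraries a pattern is 2 levels per gene, so likeness is given as the distance between log2(CPM per kb) values over both libraries among 20280 protein-coding genes. The genes nearest to S100a8 were Gm21887 (distance 0.17), Anxa1 (0.21), Krt6a (0.21), Calm4 (0.23) and Krt17 (0.29). Those nearest to S100a9 were Gm10722 (0.19), Gm10801 (0.38), Hsp90aa1 (0.40), Rplp0 (0.41) and Hspa8 (0.54). Krt6a was at 83.3 CPM per kb in library 1 and 267 in library 2, and Gm10722 at 320 and 740.1.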

How the data were processed

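RNA was sequenced from 2 samples of 1 group with a stranded kit for low input, per the labels. The deposited file is 1 table of unnormalized counts, with a row for each Ensembl gene. Per the submitters' processing notes the authors used StringTie, HISAT2, Trimmomatic and SAMtools on GRCm38; versions are not listed. The annotation release, strand setting and unit counted (reads or pairs) were not stated, so overlapping genes cannot be told apart and intervals cover counting error only. The column with the number 2 is library 2 and the unnumbered column library 1. After 2 rows without an identifier were left out, 55487 genes remained, 55227 with symbol and exon length (union of exons) from GENCODE M21 on GRCm38. In 4 cases a listed symbol was matched by a RefSeq synonym.

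Levels are CPM and CPM per kb of exon. Genes reaching 1 CPM in either library were scaled by TMM, then compared with binomTest, an exact test, from edgeR 4.0.16 under R 4.3.3, which covers sampling noise alone, with Benjamini-Hochberg adjustment at 0.05. A group of 2 leaves no residual degrees of freedom for a quasi-likelihood test. Log2 ratios are library 1 over library 2 with a prior count of 1. The procedure was tested on simulated data. Size factors of DESeq2 1.42.0 were an alternative. A count of 0 allows up to 3 counts.

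The 10 genes, the other gene lists and the background were chosen with earlier results of these data known. Genes named from a list are the 3 highest per kb above background and the called gene with the largest ratio in each direction at a mean of at least 1 CPM. Others (such as Defb28, Ltf, Ngp, Elane, Tlr4, Ly6g, Mpo, Cebpe, Il17a, Il17f, Il1f6 and Il1f5) were named after their values were seen.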

Additional observations from a re-analysis of the deposited data

How the results depend on the processing

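With a dispersion of 0.04 the number of the 10 genes called between the libraries was 4 instead of 9, and that of all genes 10204 instead of 24371. The other scalings and count filters left both within 1.5 times. Without a length correction 5 of the 10 genes exceeded the background instead of 8. The S100a8 to S100a9 ratio was 0.370 as a plain count ratio and 0.385 with the longest transcript as length, an alternative added after the data were seen, against 0.278. In single libraries it was 0.263 and 0.292. Lcn2 reversed with total counts (log2 ratio -0.43) and with the upper quartile (-0.27), while the other 8 tested genes kept their sign under these scalings. With a minimum of 10 counts in both libraries 7 genes were called; Lcn2 had an adjusted p of 0.0698 in edgeR's exact binomial test and Defb4 was not tested. Low counts limit what can be said of Camp, S100a7a, Defb4, Defb14 and, in library 1, Defb3. No paired analysis was possible because both samples belong to 1 group.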
